A study of Drosophila melanogaster with 56 samples.

Results

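The change in transcript levels over 48 h of fasting was compared between the mouthparts and the rest of the head of Drosophila melanogaster. For each probe set, the 48 h minus 0 h change on palp-proboscis arrays was reduced by the same change on head arrays, and this quantity is called the difference of changes below. It was taken over all 18769 probe sets of the array that were not controls, of 18952 in all, and used 18 of the 56 arrays of the series. Flies from 6 pools were sampled at 0, 24 and 48 h and divided into body parts, and each array held 1 body part of 1 pool at 1 time. The palp-proboscis samples (palp hereafter) held maxillary palps and proboscis together, and the head samples were heads from which the chemosensory organs had been removed. There were 5 palp and 5 head arrays at 0 h, before fasting, and 4 palp and 4 head arrays at 48 h of fasting. Arrays of both parts at 1 time came from the same pools (4, 5, 6, 8 and 9 at 0 h and 4, 6, 7 and 8 at 48 h), and replicate numbers below follow this order. Strain, genotype, sex, age and diet before fasting are not given in the sources used here. All groups lack a fed sample at 48 h, so fasting cannot be told apart from elapsed time.

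The maxillary palps carry olfactory neurons, and the proboscis carries taste neurons, cuticle, salivary and pharyngeal structures and the muscles of feeding. The rest of the head holds the brain, with the insulin-producing neurons, and also the compound eyes and the fat body that lines the head capsule. In fasting flies, low insulin signalling and adipokinetic hormone are known to release stored lipid and glycogen, while autophagy genes rise and the synthesis of storage and secreted proteins falls.

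Levels were log2 signals between 2.08 and 15.4, the median of every array was 4.04, and an array had 33.7% to 38.3% of its probe sets at the bottom of the scale. Levels below 4 on every array of a group are treated here as at the signal floor, and a fold against a group whose mean was below 4 is given as at least the fold against 4. The labelled parts matched their markers. The summed signal of 22 phototransduction genes was 18.1 to 18.4 (log2) on head arrays at 0 h against 14.4 to 15.5 on palp arrays, and that of 26 muscle genes was 18.02 to 18.20 on palp arrays against 16.82 to 17.01 on head arrays. Some arrays carried transcripts of another tissue. The mean log2 signal of the proboscis transcripts CG14277, CG3088, CG8329 and Obp56g was at least 14.7 on every palp array and lay between 2.21 and 2.71 on 5 of 9 head arrays. On head 0 h replicate 4 it was 9.60, and on head 48 h replicates 2, 3 and 4 it was 8.36 to 8.78, so these transcripts moved with time in head. Ilp2, an insulin-like peptide gene of the brain, was at 7.42 and 8.51 on palp 0 h replicates 4 and 5 and at the floor on the other palp arrays. The photoreceptor channel gene trp was also highest among palp arrays at 0 h on these 2, at 11.46 and 11.42 against 10.21, 9.81 and 8.72, and the summed signal of the phototransduction genes was 15.47 and 15.53 on them against 14.39 to 14.99. The summed signal of 27 neuron genes was 14.63 and 14.56 on them, 14.18 to 14.37 on the other palp arrays at 0 h, 14.2 to 14.7 on palp arrays at 48 h and 16.8 to 17.2 on head arrays. The mean signal of the gut transcripts Jon65Aiii, Mal-A1, Mal-A6 and alphaTry was 12.5 on palp 0 h replicate 2. It was at most 7.20 on the other palp arrays and between 2.63 and 13.7 on head arrays. The yolk protein gene Yp1 was at 11.44 and 12.69 on 48 h replicate 1 of palp and head, both from pool 4. On the other 48 h arrays it was at 4.53 to 4.87 in palp and 4.27 to 5.67 in head. At 0 h it was at 4.43 to 6.72 in palp and 5.44 to 6.56 in head.

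**Figure D1:**
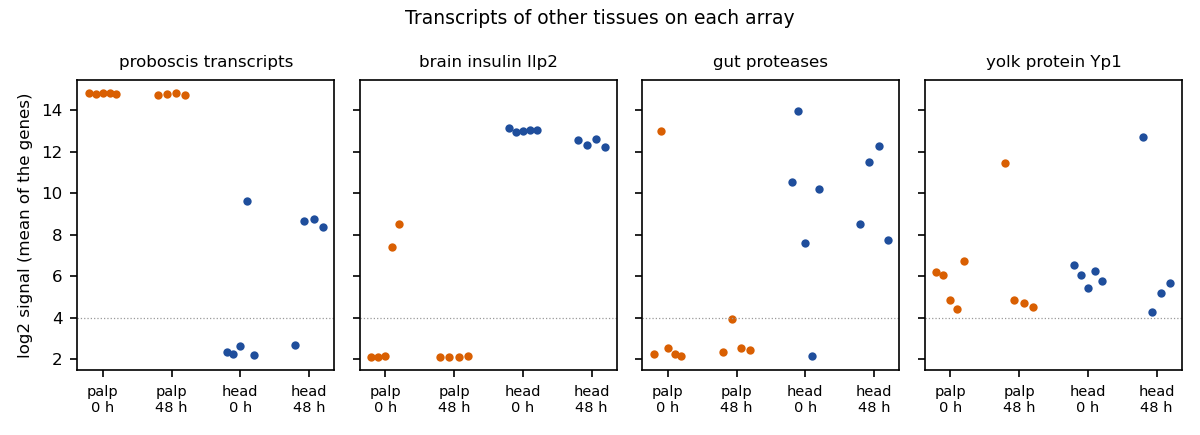
Log2 signal of transcripts of other tissues on each of the 18 arrays (1 point per array, orange for palp and blue for head, dotted line at 4); proboscis transcripts are the mean of CG14277, CG3088, CG8329 and Obp56g, and gut proteases the mean of Jon65Aiii and alphaTry. Proboscis transcripts reach 9.60 on head 0 h replicate 4 and at least 8.36 on 3 of 4 head arrays at 48 h. Ilp2 reaches 7.42 and 8.51 on 2 palp arrays at 0 h. Yp1 reaches 11.44 and 12.69 on 48 h replicate 1 of palp and head.

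The palp and the head differed in their response to fasting at 397 of 10097 tested probe sets (3.93%), by limma with Benjamini-Hochberg adjustment at an adjusted p of 0.05. The change in palp was the higher at 236 of them (2.34% of those tested) and the lower at 161 (1.59%), by at least 2-fold at 156 and 102. The most frequent pattern was a fall in palp with head not called, at 97 probe sets, followed by a fall in head with palp not called, at 81. A rise in palp with head not called was found at 55 and a rise in head with palp not called at 30. Both parts rose at 49, with the larger rise in palp at 40 of these, and both fell at 61, with the larger fall in head at 51. At 24 probe sets the parts changed in opposite directions, palp up and head down at 9 and palp down and head up at 15. In bulk samples, fewer cells of a type and less RNA per cell cannot be told apart. Palp minus head, taken within each pool, did not overlap between times for 371 of the 397, where 10.6% of all tested probe sets had no such overlap. With the pool as a fixed block 597 probe sets were called, 381 of them shared. Without the 4 head arrays that held proboscis transcripts, which leaves 1 head array at 48 h, 121 were called, 97 of them shared. Of the 97 called genes named below this omission ended the call of 58. Each kept its sign, with 50.2% to 137% of the difference of changes (median 92.0%). These shares follow in part from the arrays that both fits have in common. Where head was at the floor, the omission can hardly move a difference. The median standard error over the 97 rose from 0.32 to 0.41, and why the calls ended was not tested. The difference without these arrays is given below beside the calls it ended. The head array left at 48 h was replicate 1, which held the Yp1 signal.

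The signal floor bears on 88 of these calls. Head was below 4 on all 9 arrays at 61 called probe sets, 20 higher and 41 lower in palp, of 346 such probe sets tested. Palp was below 4 on all 9 arrays at 27, 16 higher and 11 lower, of 375 tested. At such a probe set the difference of changes rests mainly on the measured part. A change of the other part below the floor enters the fit but may not be measured in full. Groups at the bottom of the scale have little or no spread, and the fit pools the spread of all 4 groups. Standard errors and adjusted p at such probe sets can therefore be too small. The other 309 calls had at least 1 array at 4 or more in each part, and at 24 of them at least 1 group was below 4 on all its arrays. A further 8034 probe sets were below 4 on all 18 arrays and were not tested. Read as genes, 352 of 8166 (4.31%) were called, 210 higher in palp (2.57%) and 142 lower (1.74%). The median difference of changes over all tested genes was -0.01. Of the called genes 19 had a second tested probe set. At 15 of these all probe sets had the same sign, and at 6 another probe set was called too.

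**Figure D2:**
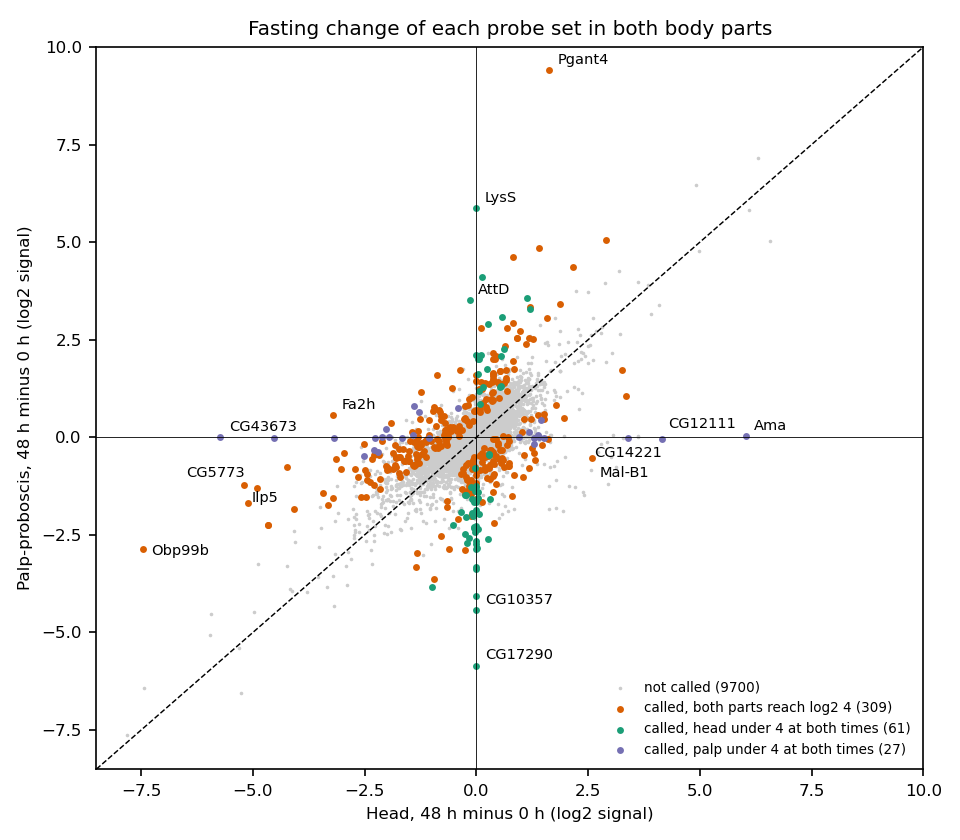
Change from 0 h to 48 h in head (horizontal) and palp (vertical) for each tested probe set, in log2 signal, with the dashed line where both are equal. The 309 called probe sets measured in both parts lie off the line on both sides, while the 61 with head at the floor lie near the vertical axis and the 27 with palp at the floor near the horizontal axis.

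The gene with the widest gap was Pgant4, which encodes a glycosyltransferase that starts mucin-type O-glycosylation. Its palp log2 signal was 3.31, 2.72, 3.04, 3.47 and 3.00 at 0 h and 13.08, 12.57, 12.01 and 12.43 at 48 h, and its head signal was 6.13, 7.07, 6.88, 6.88 and 6.19 at 0 h and 9.26, 7.52, 8.61 and 7.63 at 48 h. At 0 h every palp array was below every head array, and at 48 h every palp array was above every head array. The rise was at least 368-fold in palp and 3.09-fold in head, a difference of changes of 7.79 ± 0.46 (SE of limma, adjusted p = 2.61e-08). Of the 9 genes of its family on the array, all tested, no other was called in limma, 3 had an unadjusted p below 0.05 (Pgant4 included), and the fit within pools called 2.

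Other genes rose in both parts and more in palp. LpR1 encodes a lipophorin receptor, through which cells take up lipid from circulating lipoprotein particles. Its palp signal was 9.63, 10.01, 9.59, 9.57 and 9.90 before and 12.95, 12.32, 12.38 and 12.45 after fasting, and its head signal was 11.50, 11.37, 11.50, 11.55 and 11.66 before and 12.33, 12.10, 12.25 and 12.10 after. Palp started below every head array and ended level with head or higher. The rise was 6.91-fold in palp and 1.60-fold in head (2.11 ± 0.18, adjusted p = 2.58e-06), and a further probe set of the gene gave 2.42 ± 0.25. CG7059 rose 33.3-fold in palp and 7.50-fold in head (2.15 ± 0.40), from 6.80 to 8.29 to between 12.02 and 12.86 in palp and from 8.95 to 9.56 to between 11.92 and 12.78 in head. DJ-1alpha, a relative of the human Parkinson disease gene PARK7, rose 10.2-fold in palp and 2.31-fold in head (2.13 ± 0.38). For both genes the parts were well apart at 0 h and reached much the same level at 48 h. The rise of dyw was 20.5-fold and 4.46-fold (2.20 ± 0.52, adjusted p = 0.0226), a call lost without head 48 h replicate 3 or 4 (adjusted p = 0.0579 and 0.0592). LpR1, CG7059, DJ-1alpha and dyw were chosen after their values were seen. The alpha-tubulin gene alphaTub85E rose in palp, from 4.50, 4.28, 5.51, 4.60 and 6.79 to 8.00, 7.54, 8.06 and 8.14, while head stayed between 3.60 and 4.15 at both times (2.70 ± 0.51, adjusted p = 0.00487). Without the 4 head arrays that held proboscis transcripts, Pgant4 (6.72) and LpR1 (1.96) were called, and at smaller differences CG7059 (1.62), DJ-1alpha (1.97), dyw (1.28) and alphaTub85E (2.48) were not.

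A second group fell in head far more than in palp. Obp99b, an odorant-binding protein gene also expressed in fat body, was at 13.91, 13.68, 14.02, 13.40 and 11.32 in head at 0 h and at 5.74, 5.41, 7.77 and 4.29 at 48 h. In palp it was at 13.73, 13.16, 13.50, 13.10 and 12.49 at 0 h and at 9.64, 10.70, 10.80 and 10.22 at 48 h. The parts overlapped before fasting and were apart after it, with a fall of 177-fold in head and 7.23-fold in palp (4.61 ± 0.85, adjusted p = 0.00371). Jabba, which encodes a histone anchor on lipid droplets, showed the same order. It went from 12.47, 11.90, 12.11, 11.90 and 11.24 to 7.85, 8.20, 7.72 and 7.57 in head, and from 12.52, 11.97, 12.24, 12.11 and 11.90 to 10.13, 10.33, 10.48 and 10.28 in palp. The fall was 17.0-fold in head and 3.59-fold in palp (2.25 ± 0.28, adjusted p = 0.000135), and a further probe set gave 2.42 ± 0.30. Jabba was chosen after its values were seen. CG5773 fell 30.2-fold in head, from between 12.08 and 12.79 to between 6.95 and 8.01, and 2.45-fold in palp, from between 13.73 and 14.10 to between 12.07 and 12.80 (3.62 ± 0.28, adjusted p = 5.53e-07). Tig, which encodes the extracellular integrin ligand tiggrin, fell 4.42-fold in head and 2.10-fold in palp (1.07 ± 0.24), and CG11854 fell at least 30.3-fold and 3.22-fold (3.43 ± 0.81). The CG11854 call was lost without palp 48 h replicate 1 (adjusted p = 0.0517).

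In some genes head fell and palp was not called. Fa2h encodes a fatty acid 2-hydroxylase that acts on the lipids of sphingolipid synthesis. Its head signal was 7.33, 7.62, 5.94, 6.28 and 6.04 at 0 h and 2.83, 2.93, 4.40 and 3.57 at 48 h, and its palp signal was 8.44, 9.29, 8.40, 8.52 and 8.60 at 0 h and 9.55, 9.09, 9.32 and 8.88 at 48 h. The head groups were apart and the palp groups overlapped, with a change of -3.21 ± 0.37 in head and 0.56 ± 0.37 in palp (difference of changes 3.77 ± 0.52, adjusted p = 0.000341). Sodq fell 8.77-fold in head and changed by -0.55 ± 0.34 in palp, MFS9, a gene of the major facilitator family of transporters that was chosen after its values were seen, fell 7.81-fold and changed by -0.40 ± 0.21, and the cuticle protein gene Cpr76Bc fell at least 6.87-fold in head. Palp was at 4.03 on 1 array and below 4 on the other 8 for Cpr76Bc, so that a fall there may not be measured in full. Ilp5, an insulin-like peptide gene of the brain, was at 11.77, 11.31, 12.01, 12.06 and 11.35 in head at 0 h and at 7.14, 7.19, 6.03 and 5.62 at 48 h. On palp arrays Ilp5 was between 2.08 and 2.10 except on 0 h replicates 4 and 5, at 4.86 and 5.49, the arrays that also held Ilp2. Its difference of changes was 3.98 ± 0.88 (adjusted p = 0.0141), and palp was at the floor on 7 of 9 arrays. Without the 4 head arrays that held proboscis transcripts, Obp99b, Jabba, CG5773, Fa2h, Sodq, MFS9 and Cpr76Bc were called and Ilp5 (3.25, adjusted p = 0.453), Tig (1.33, 0.112) and CG11854 (2.91, 0.328) were not.

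**Figure D3:**
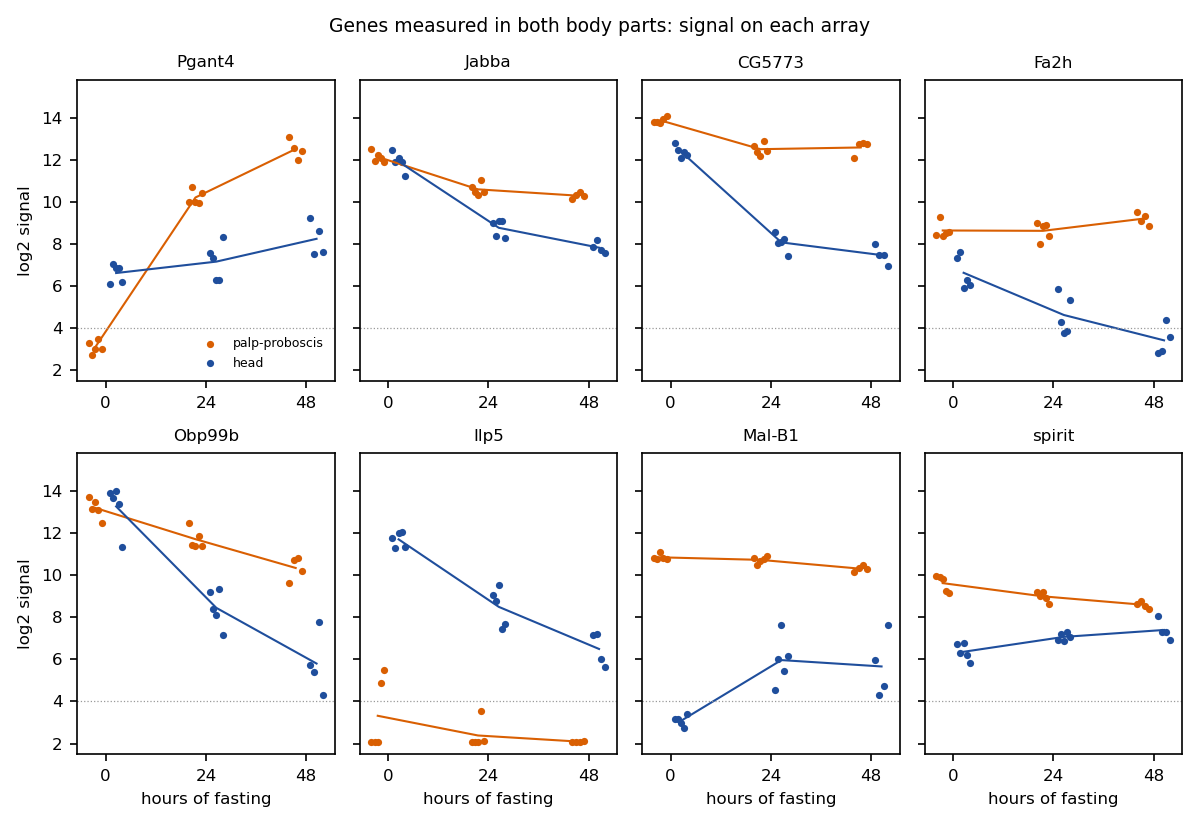
Log2 signal of 8 genes on each array at 0, 24 and 48 h of fasting (points, 1 per array; lines join group means; orange palp, blue head; dotted line at 4). Pgant4 starts lower and ends higher in palp, Jabba and Obp99b overlap at 0 h and, with CG5773, fall further in head, and spirit moves in opposite directions.

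Lower values in palp came from rises in head and from falls in palp. Mal-B1, a maltase gene, was at 3.16, 3.18, 2.95, 2.73 and 3.40 in head at 0 h and at 5.95, 4.32, 4.74 and 7.64 at 48 h, while palp was at 10.83, 10.76, 11.08, 10.82 and 10.75 and then at 10.14, 10.33, 10.48 and 10.27. Head stayed below palp on every array. The rise in head was at least 3.17-fold, and the change in palp was -0.54 ± 0.44 (difference of changes -3.12 ± 0.63, adjusted p = 0.00749). Its relative Mal-B2 rose 2.83-fold in head and 1.38-fold in palp (-1.04 ± 0.20). Another maltase gene, Mal-A5, went the other way, with a rise of 1.57-fold in palp and a change of 0.08 ± 0.08 in head (0.57 ± 0.12). Nha1, which encodes a sodium/proton antiporter, fell 2.82-fold in palp and changed by 0.79 ± 0.31 in head (-2.28 ± 0.43). Jhbp15, named for its likeness to juvenile hormone binding proteins, fell 4.60-fold in palp, from between 6.93 and 8.71 to between 4.67 and 6.53, and was at 3.41 to 5.18 on all head arrays (-2.59 ± 0.58). For amd, a gene of catecholamine metabolism in cuticle formation, a rise of 2.25-fold in head and a change of -0.79 ± 0.36 in palp gave -1.96 ± 0.51 (adjusted p = 0.040), a call lost without any 1 of 13 of the 18 arrays (adjusted p up to 0.0997). Without the 4 head arrays that held proboscis transcripts, Mal-B1, Mal-B2 and Nha1 were called and Mal-A5 (0.53), Jhbp15 (-1.56) and amd (-1.60) were not.

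Several genes with far higher signal in head than in palp fell in palp. Obp44a, an odorant-binding protein gene expressed in glia, was at 10.45, 11.58, 11.07, 12.43 and 11.83 in palp at 0 h and at 7.66, 8.63, 8.50 and 9.51 at 48 h, a 7.44-fold fall. In head it was between 15.08 and 15.13 at 0 h and between 14.85 and 14.94 at 48 h (difference of changes -2.65 ± 0.47, adjusted p = 0.003). The head values were near the highest of any array, 15.4, where a change may not be measured in full. The palp groups were apart, and no palp array reached the head level. The astrocyte gene alrm fell at least 5.96-fold in palp, from 5.00, 7.33, 6.38, 7.63 and 6.53 to 4.01, 3.49, 3.28 and 4.11, and was between 11.94 and 12.81 in head (-2.24 ± 0.52, adjusted p = 0.019). In the same direction, nkt fell at least 8.78-fold in palp and changed by -1.35 ± 0.28 in head (-1.98 ± 0.40). NPF, the gene of the feeding neuropeptide F, fell 2.73-fold in palp and changed by -0.12 ± 0.18 in head (-1.33 ± 0.25). Pdh, a photoreceptor dehydrogenase gene, fell 2.13-fold in palp and changed by -0.20 ± 0.15 in head (-0.90 ± 0.21). Most genes of these kinds did not share the pattern. Of 15 tested glia genes only alrm was called (6.67%, against 4.31% of all genes), with a median difference of changes of 0.13. Of 22 tested phototransduction genes Pdh was called lower and laza higher (9.09%), with a median of 0.29. The median change in palp was -0.10 for the glia genes and 0.41 for the phototransduction genes. Signal from head tissue on palp arrays was measured beside these falls. The summed log2 signal of 16 glia genes on palp arrays was 15.3 to 15.5 at 0 h and 15.2 to 15.4 at 48 h, with 1 and 2 of the 16 below 4 on all arrays, and that of 22 phototransduction genes was 14.4 to 15.5 and then 15.04 to 15.39, with 1 of 22 below 4. At 0 h the phototransduction sum was highest on the 2 arrays that held Ilp2. The part of carried-over head tissue in these falls was not tested. Without palp 0 h replicates 4 and 5, which held Ilp2, Obp44a, alrm, nkt and NPF were called and Pdh was not, and without the 4 head arrays that held proboscis transcripts none of the 5 was called, at differences of -2.62, -2.39, -1.83, -1.11 and -0.84.

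Opposite changes were largest for CG6356, CG4476, spirit, Cralbp, Cln3 and CG32645, taken by a rule on size. Cln3 encodes a lysosomal membrane protein whose human counterpart is mutated in a form of Batten disease. It rose in palp, from 8.52, 8.81, 8.68, 8.38 and 8.56 to 9.60, 9.47, 9.29 and 9.07, and fell in head, from 9.03, 9.33, 8.81, 8.47 and 8.67 to 8.24, 8.12, 7.60 and 7.70. The times did not overlap within either part, and the difference of changes was 1.72 ± 0.25 (adjusted p = 0.0005). CG6356 rose 3.00-fold in palp and fell 1.85-fold in head (2.48 ± 0.24). The gene spirit encodes a serine protease placed upstream in the Toll immune pathway. It was at 9.94, 9.93, 9.84, 9.27 and 9.13 and then 8.62, 8.79, 8.55 and 8.41 in palp, and at 6.73, 6.30, 6.76, 6.19 and 5.81 and then 8.07, 7.30, 7.29 and 6.92 in head. The parts drew closer without meeting (-2.06 ± 0.34, adjusted p = 0.00165). Cralbp, whose vertebrate namesake binds retinaldehyde, and CG32645 fell 1.96-fold and 1.68-fold in palp and rose at least 1.09-fold and 1.02-fold in head, where all 0 h arrays were below 4 (-1.83 ± 0.31 and -1.46 ± 0.30). CG4476 gave 2.41 ± 0.59 (adjusted p = 0.0263), with palp between 2.08 and 2.25 at 0 h and at 3.22, 2.65, 2.47 and 4.92 at 48 h, so its rise lay below 4 on all arrays but 1. With values under 4 raised to 4 the difference was 1.46 and not called (adjusted p = 0.0520). The call was also lost with the pool as a block (adjusted p = 0.0516) and without head 48 h replicate 2 or 4 (0.0541 and 0.0675). It was lost too without the 4 head arrays that held proboscis transcripts (2.01, adjusted p = 0.470), where the other 5 were called.

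Where head was at the floor, the largest rise in palp was that of LysS, a lysozyme gene expressed in the gut. All palp arrays at 0 h were at 2.08, and at 48 h they were at 8.78, 9.28, 5.13 and 8.64, at least 15.5-fold higher. All 9 head arrays were at 2.08 (difference of changes 5.88 ± 0.78, adjusted p = 0.000242). The SD of LysS was 1.91 in palp at 48 h and 0 in palp at 0 h and in head at both times. The pooled error and its adjusted p can therefore be too small. The mean of the gut transcripts on palp arrays was 6.43 to 6.64 at 0 h, apart from 12.5 on replicate 2, and 6.29 to 7.20 at 48 h. LysS was the only 1 of 3 lysozyme genes on the array that was tested. AttD, which encodes an attacin-type antimicrobial peptide, was between 2.08 and 2.40 in palp at 0 h and at 6.47, 6.10, 6.17 and 4.37 at 48 h, at least 3.43-fold higher (3.67 ± 0.43, adjusted p = 7.52e-05). CG13215, Cyt-c1L and CG10336 also rose in palp (3.97 ± 0.78, 2.66 ± 0.34 and 2.51 ± 0.19). Their head signals were at most 2.66, 2.62 and 3.97. In head CG10336 was called too, with a change of 0.57 ± 0.14 below 4.

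The falls of this kind were led by CG17290. Its palp signal was 8.41, 8.45, 9.31, 8.11 and 7.24 at 0 h and 2.09, 2.30, 2.94 and 2.49 at 48 h, a fall of at least 19.8-fold to the floor, with every head array at 2.08 (-5.85 ± 0.39, adjusted p = 1.13e-07). CG10357 fell at least 6.32-fold to the floor (-4.43 ± 0.34). Obp56b went from 8.71, 8.55, 7.69, 6.65 and 7.47 to 3.41, 3.78, 3.71 and 4.11 (-4.06 ± 0.42, adjusted p = 2.05e-05), again with head at 2.08 on all arrays. The carbonic anhydrase gene CAH5 fell 10.1-fold in palp, from between 8.78 and 10.27 to between 5.99 and 6.56 (-3.33 ± 0.32), and CG14566 fell at least 8.01-fold (-3.35 ± 0.58). Of the 10 genes of both kinds, 8 were called without the 4 head arrays that held proboscis transcripts. CG13215 (3.56, adjusted p = 0.311) and CG14566 (-3.34, 0.143) were not.

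Where palp was at the floor, Ama led. It encodes amalgam, a secreted immunoglobulin-domain adhesion protein of the nervous system. In head it was at 2.59, 2.25, 2.49, 2.69 and 3.33 at 0 h and at 8.60, 7.79, 9.13 and 9.26 at 48 h, at least 25.9-fold higher, and all palp arrays were between 2.17 and 2.27 (-5.997 ± 0.34, adjusted p = 1.96e-08). CG12111 rose in head from between 2.08 and 2.11 to 6.43, 6.09, 6.47 and 6.00, at least 4.74-fold (-4.19 ± 0.14), and CG14221 rose 10.5-fold (-3.41 ± 0.31). Both were at or below 2.40 on all palp arrays at these times. Smaller rises in head were those of CG4714 and ImpE1, the second an ecdysone-inducible gene (-1.53 ± 0.31 and -1.45 ± 0.29). The falls were led by CG43673, at 8.69, 9.96, 9.47, 9.81 and 7.48 in head at 0 h and at 2.38, 2.60, 6.04 and 2.41 at 48 h, with palp at 2.08 throughout (5.73 ± 0.87, adjusted p = 0.000839). CG15155 fell at least 2.98-fold, CG15414 at least 2.19-fold, CG5653 4.85-fold and CG43085 2.61-fold. With values under 4 raised to 4 the CG4714 call was lost (adjusted p = 0.291). Ama, CG12111, CG14221, CG43673, CG15155 and CG15414 were called without the 4 head arrays that held proboscis transcripts, and CG4714 (-1.21), ImpE1 (-1.29), CG5653 (1.94) and CG43085 (2.20) were not.

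**Figure D4:**
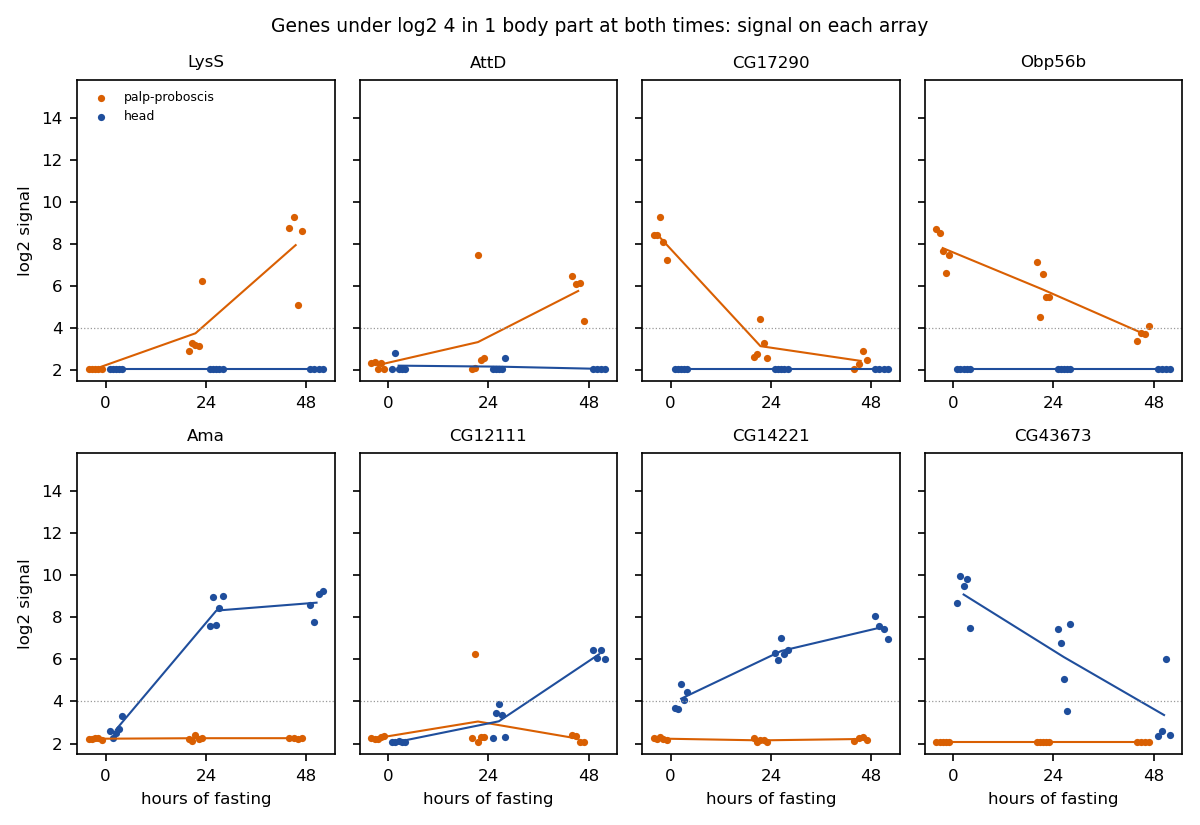
Log2 signal on each array at 0, 24 and 48 h (points, 1 per array; lines join group means; orange palp, blue head; dotted line at 4) for 4 genes with head below 4 at 0 and 48 h (upper) and 4 with palp below 4 at those times (lower). LysS and AttD rise and CG17290 and Obp56b fall in palp, and Ama, CG12111 and CG14221 rise and CG43673 falls in head.

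Odorant-binding proteins carry hydrophobic ligands in the fluid around sensory neurons, and some are secreted by other tissues. Of 48 such genes on the array 34 were tested, with head at the floor for 6. In palp 3 were called higher and 3 lower, 17.6% of those tested against 4.31% of all genes. Among all probe sets with head at the floor, 61 of 346 were called. In limma 10 fell and 1 rose in palp, and 11 fell and 4 rose in head, where 14.1% of all tested genes fell and 16.2% rose in palp and 13.3% fell and 14.0% rose in head. The median difference of changes was -0.43. The called members fell into 2 patterns. Obp99b, Obp99d and Obp19d fell more in head, with changes of -7.46 ± 0.60, -3.03 ± 0.41 and -2.12 ± 0.33 there and of -2.85 ± 0.60, -0.81 ± 0.41 and -0.09 ± 0.33 in palp, of which the last 2 were not called. Obp19d was among the brightest probe sets in palp, at 14.61 to 14.91 at both times, near the highest value of any array. Obp44a, Obp56b and Obp56f fell in palp and were not called in head, the last 2 with head at the floor. Obp56f fell 4.10-fold, from between 9.28 and 9.97 to between 7.38 and 7.92 (-1.81 ± 0.25). The Obp99d call (2.22 ± 0.58, adjusted p = 0.0396) was lost without any 1 of 13 arrays (adjusted p up to 0.0958). Without the 4 head arrays that held proboscis transcripts, Obp99b, Obp19d, Obp56b and Obp56f were called and Obp44a (-2.62) and Obp99d (1.11) were not. Obp19d, Obp56f and Obp99d were named after their values were seen.

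Cytochromes P450 oxidise hormones, lipids and toxins. Of 84 on the array 70 were tested, and 6 were called higher and 3 lower in palp, 12.9% of those tested against 4.31% of all genes, with a median of 0.17. In palp 20 fell and 14 rose, where 14.1% and 16.2% of all genes did, and in head 24 fell and 14 rose, where 13.3% and 14.0% did. Cyp4d21, known as sex-specific enzyme 1, fell from between 10.64 and 11.61 to between 7.90 and 8.85 in head and from between 13.23 and 13.42 to between 12.35 and 12.83 in palp, falls of 6.53-fold and 1.75-fold (1.90 ± 0.29, adjusted p = 0.000788). Cyp9b2, Cyp4d8 and Cyp12b2 fell in both parts and more in head (0.99 ± 0.18, 0.90 ± 0.18 and 0.59 ± 0.12). Cyp18a1, which inactivates the steroid hormone ecdysone, rose 2.73-fold in palp and 1.31-fold in head (1.06 ± 0.19). A further Cyp18a1 probe set gave 1.69 ± 0.48 and was not called (adjusted p = 0.0631), with a change of -0.19 in head. Cyp313a4 and Cyp6t3 rose in both parts, in head from the floor. Cyp313a4 was at 2.31, 2.71, 2.34, 2.08 and 2.61 in head and then at 6.17, 5.21, 6.10 and 5.56, a rise of at least 3.39-fold against 2.10-fold in palp (-2.28 ± 0.26). For Cyp6t3 the rise was at least 5.31-fold in head and 3.28-fold in palp (-1.55 ± 0.28). With values under 4 raised to 4, neither was called (-0.69, adjusted p = 0.111, and -0.69, adjusted p = 0.180). The calls of Cyp313a1 (0.45 ± 0.12) and Cyp4c3 (-1.39 ± 0.36) were lost without any 1 of 15 and of 12 arrays (adjusted p up to 0.110 and 0.0926). Cyp4d21, Cyp313a4 and Cyp6t3 were called without the 4 head arrays that held proboscis transcripts, and Cyp9b2 (0.82), Cyp4d8 (0.86), Cyp12b2 (0.54), Cyp18a1 (0.74), Cyp313a1 (0.60) and Cyp4c3 (-1.62) were not. Cyp9b2, Cyp4d8, Cyp12b2, Cyp18a1, Cyp313a1 and Cyp4c3 were named after their values were seen.

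**Figure D5:**
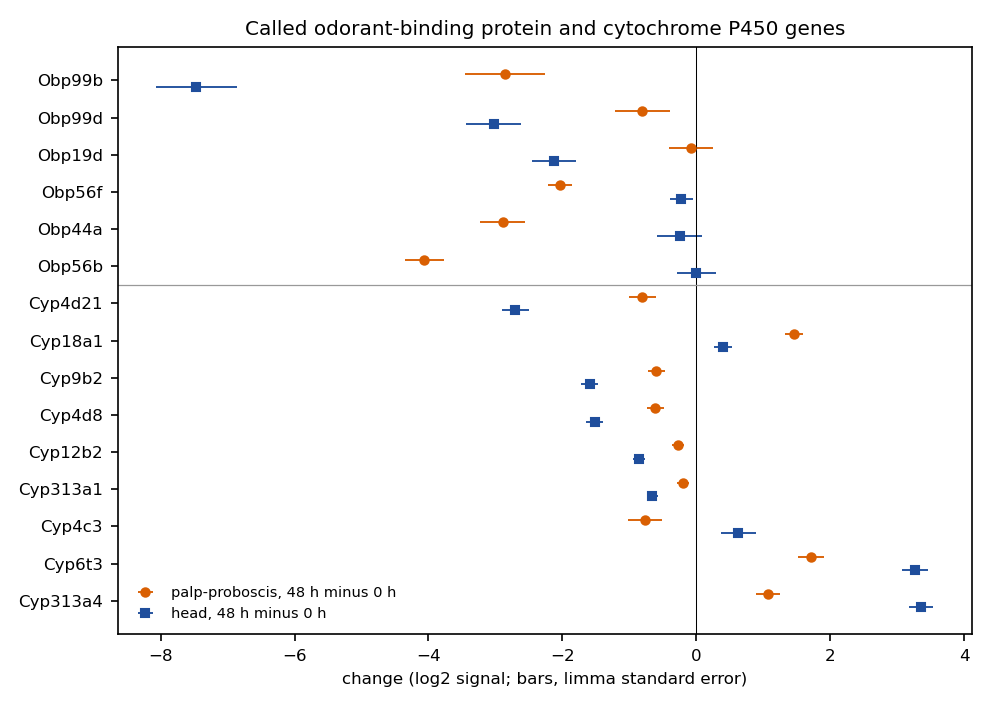
Change from 0 h to 48 h in palp (orange circles) and head (blue squares), in log2 signal with the standard error of limma, for the 6 odorant-binding protein genes (above the grey line) and 9 cytochrome P450 genes whose changes differed between parts. Obp99b, Obp99d and Obp19d lie further left in head, Obp56f, Obp44a and Obp56b further left in palp, and Cyp6t3 and Cyp313a4 rise more in head.

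Chemosensory receptors were mostly dim, and few passed the filter. Of 57 odorant receptors on the array 15 were tested, 9 with head at the floor, and 2 were called (13.3%, against 4.31% of all genes). A probe set with head at the floor passed the filter through palp alone, and 61 of all 346 such probe sets were called. Or1a, described in larval olfactory neurons, fell 6.13-fold in palp, from 8.82, 8.69, 8.07, 8.37 and 8.78 to 6.01, 5.81, 6.24 and 5.66, with head at 2.72 to 3.90 (-2.89 ± 0.28, adjusted p = 1.04e-05). Or45b, also known from larvae, fell at least 2.39-fold to the floor, from 5.48, 5.51, 5.80, 5.09 and 4.40 to 2.43, 3.99, 2.73 and 2.45 (-2.38 ± 0.40). Of 13 tested gustatory receptors, of 56 on the array, 12 had head at the floor and 1 was called (7.69%). This was Gr43a, a fructose receptor, at 3.29, 4.14, 3.95, 4.41 and 3.00 in palp and then 4.86, 5.15, 4.66 and 5.10 (1.14 ± 0.30, adjusted p = 0.0464). The call was lost without any 1 of 14 arrays (adjusted p up to 0.1001) and within pools (0.0555). The sugar receptor gene Gr5a did not pass the filter on dim probe sets, at 2.33 to 3.39 in palp at 0 h and 3.71 to 4.20 at 48 h. The broad sugar receptor gene Gr64f (0.08 ± 0.14), the bitter receptor gene Gr66a (-0.09 ± 0.18), the co-receptor genes Ir25a (-0.17 ± 0.24), Ir76b (0.18 ± 0.37) and Orco (-0.21 ± 0.32) and the water channel gene ppk28 (-0.30 ± 0.58) were not called. Of 6 tested ionotropic receptors none was called in limma, 3 had an unadjusted p below 0.05, and the fit within pools called 1. Among 10 tested pickpocket channels 1 was called, ppk17, which fell 2.39-fold in palp, with head at the floor (-1.25 ± 0.18). When the 4 head arrays that held proboscis transcripts were left out, ppk17 (-1.25), Or45b (-2.38) and Gr43a (1.11) were not called, while Or1a was. The changes of ppk17, Or45b and Gr43a in head were only -0.01, 0.03 and 0.05 in the main fit. Leaving out head arrays could therefore hardly move their differences.

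Genes of fuel use and of its hormonal control were read singly. The insulin receptor gene InR rose 5.48-fold in palp and 4.74-fold in head (difference of changes 0.21 ± 0.42), the adipose lipase gene bmm 3.27-fold and 3.65-fold (-0.16 ± 0.17) and the acyl-CoA synthetase gene hll at least 36.0-fold and 47.1-fold (-0.27 ± 0.35), and none of these differences was called. Those of the lipase gene mag (1.54 ± 0.91), the satiety-linked gene fit (1.02 ± 0.94) and the storage protein gene Lsp2 (-1.30 ± 0.87) had wide errors and were not called. AkhR, the receptor gene of adipokinetic hormone, fell 2.91-fold in palp and 4.58-fold in head (0.66 ± 0.20, adjusted p = 0.080). This was called with the pool as a block (0.0329) and within pools (0.0164). A further AkhR probe set gave 1.15 ± 0.32 (adjusted p = 0.0525). The difference for Ilp2 was -1.72 ± 1.51 (adjusted p = 0.717), and without the 2 palp arrays picked for their Ilp2 signal it was 0.61. All other palp arrays were at the floor for Ilp2, so 0.61 restates the change of -0.61 in head. The differences for Akh, sNPF, Lk, Pepck1, tobi and FASN1 were not called either and lay between -0.50 and 0.61.

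Of 29 tested genes listed by symbol under lipolysis and fatty acid oxidation, 3 were called higher in palp and none lower. Of all genes 2.57% and 1.74% were, and the median of the list was 0.10. In this list 11 fell in palp and 14 in head, where 14.1% and 13.3% of all genes fell. Acox57D-d, a peroxisomal acyl-CoA oxidase gene, went from 8.50, 8.29, 8.27, 8.49 and 8.55 to 6.09, 5.75, 5.79 and 6.27 in head and from 8.95, 8.90, 8.50, 9.22 and 9.39 to 7.72, 7.84, 8.16 and 7.88 in palp, falls of 5.44-fold and 2.13-fold (1.35 ± 0.23, adjusted p = 0.00184). The calls of whd, the mitochondrial carnitine palmitoyltransferase gene (0.74 ± 0.20), and of Desi, with head at the floor (1.94 ± 0.48), were near the threshold. They were lost without any 1 of 15 and of 8 arrays (adjusted p up to 0.0948 and 0.0732). Desi entered this list by its symbol, and a role of it in fatty acid oxidation is not shown here. Of 20 fatty acid synthesis and triglyceride genes 1 was called (5.0%, against 4.31% of all genes). This was mdy, a diacylglycerol acyltransferase gene, with a fall of 1.57-fold in head and a change of 0.03 ± 0.10 in palp (0.68 ± 0.14). Treh, which encodes trehalase, the enzyme that splits the blood sugar trehalose, was the called gene among 14 of trehalose, glycogen and gluconeogenesis (7.14%). It was at 12.43, 12.69, 12.44, 12.52 and 12.68 in head and then at 13.35, 13.12, 13.27 and 13.40, and in palp it was between 12.65 and 12.97 at both times (-0.83 ± 0.13, adjusted p = 0.0012).

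Of 23 tested autophagy genes 15 rose in palp and 13 in head, where 16.2% and 14.0% of all genes rose. In this list 2 were called higher in palp (8.70%, against 2.57% of all genes). Of 16 tested genes of the GATOR and Rag regulators of TORC1, a nutrient-sensing kinase complex, 7 rose in each part, and of 13 tested genes of insulin signalling 6 rose in palp and 7 in head. Atg1, the kinase gene that starts autophagy, went from 8.72, 8.46, 8.46, 8.58 and 8.39 to 10.49, 9.57, 9.62 and 9.83 in palp, a rise of 2.56-fold, and changed by 0.29 ± 0.16 in head (1.06 ± 0.23, adjusted p = 0.0117). Palp was below every head array at 0 h and overlapped them at 48 h. The call of Atg18b (1.06 ± 0.27) was lost without any 1 of 11 arrays, and that of the sestrin gene Sesn, which rose 2.10-fold in head and 1.39-fold in palp (-0.59 ± 0.15), without any 1 of 12 (adjusted p up to 0.0791 and 0.0890). With the pool as a block Sesn was not called (0.0622). Without the 4 head arrays that held proboscis transcripts Atg1 (0.85), Atg18b (0.77), Sesn (-0.75), Acox57D-d (1.22), whd (0.69), Desi (1.94) and mdy (0.60) were not called, and Treh was (adjusted p = 0.0492).

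Of 28 tested immune effector and peptidoglycan recognition genes 13 fell in head and 6 in palp, where 13.3% and 14.1% of all genes fell, and 1 rose in each. In this list 3 were called higher in palp and none lower (10.7%, against 4.31% of all genes; median 0.34). Tep4, a thioester protein gene, was between 13.57 and 13.75 in head at 0 h and between 12.59 and 12.82 at 48 h, and between 14.36 and 14.77 in palp at both times (0.93 ± 0.13, adjusted p = 0.000317). IM33 fell 1.63-fold in head and changed by 0.11 ± 0.11 in palp (0.82 ± 0.16), and AttD is given above. The difference between the counts of falls was not tested. Of 31 tested glutathione transferases 17 fell in head and 13 in palp, and 2 were called higher and 1 lower (9.68%). GstE3 fell 3.08-fold in head and 1.54-fold in palp (1.00 ± 0.19), GstD4 fell at least 4.14-fold in palp with head at the floor (-2.84 ± 0.45), and the call of GstO3 (0.66 ± 0.17) was lost without any 1 of 14 arrays (adjusted p up to 0.0935), with the pool as a block (0.0595) and within pools (0.0868). Of 18 tested UDP-glycosyltransferases 11 fell in palp and 12 in head, and 1 was called higher and 1 lower (11.1%). Ugt302K1 was called higher, with palp at the floor, and Ugt49C1 lower (1.95 ± 0.37 and -0.63 ± 0.13). The Ugt302K1 call was lost with values under 4 raised to 4 (adjusted p = 0.135). Tep4 was called without the 4 head arrays that held proboscis transcripts (0.0219), and the other genes of these lists, AttD apart, were not, with IM33 at 0.44, GstE3 at 0.86, GstD4 at -2.83, GstO3 at 0.38, Ugt302K1 at 2.16 and Ugt49C1 at -0.49.

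Cuticle genes changed in both directions. Of 117 on the array 39 were tested, 10 with head at the floor, and 4 were called higher and 2 lower (15.4%, against 4.31% of all genes). Among all probe sets with head at the floor, 61 of 346 were called. Cpr76Bc is given above. Cpr11A fell at least 2.77-fold in palp, with head at the floor (-2.42 ± 0.42), and Acp65Aa, an adult cuticle protein gene, rose 4.30-fold in palp with head at the floor (2.00 ± 0.47), a call lost without palp 48 h replicate 1 or 2 (adjusted p = 0.0534 and 0.0511). The chitin-binding protein gene obst-A was at 6.91, 5.97, 6.68, 6.21 and 6.21 in palp and then at 3.39, 3.51, 3.40 and 3.44, and at 5.07, 4.27, 4.80, 4.05 and 4.12 in head and then at 3.05, 3.21, 3.01 and 3.23. It fell to the floor in both, at least 5.27-fold in palp and 1.38-fold in head (-1.62 ± 0.29), and the floor limits what the fall in head could be. The growth factor gene Idgf4, whose product resembles chitinases, fell 2.51-fold in head and changed by -0.12 ± 0.18 in palp (1.21 ± 0.26). PK1-R, a pyrokinin receptor gene, fell at least 2.98-fold in palp with head at the floor (-2.23 ± 0.35). Cpr11A (-2.42), Acp65Aa (1.81), obst-A (-1.44), Idgf4 (0.93) and PK1-R (-2.34) were not called without the 4 head arrays that held proboscis transcripts.

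Other calls in the lists were near the threshold. Those of the catecholamine genes ple (-1.33 ± 0.36) and Ddc (-0.56 ± 0.14), the potassium channel gene slo (0.63 ± 0.17), the phospholipid phosphatase gene laza (1.77 ± 0.46), the chitin deacetylase gene verm (-1.89 ± 0.47), EbpIII (1.34 ± 0.35) and regucalcin (0.65 ± 0.16) had adjusted p between 0.0313 and 0.0486. Each was lost without any 1 of 10 to 15 arrays. Those of slo and Ddc were lost with the pool as a block (adjusted p = 0.0638 and 0.0539). Those of Ddc and regucalcin were lost within pools (0.0768 and 0.0659). A further regucalcin probe set gave 1.64 ± 1.25 (adjusted p = 0.660). Sdr, which encodes a secreted decoy of the insulin receptor, fell 1.56-fold in head and changed by 0.02 ± 0.11 in palp (0.67 ± 0.16), a call lost without head 48 h replicate 3 or palp 48 h replicates 1 or 3 (adjusted p up to 0.0534). The genes ple (-0.99), Ddc (-0.58), slo (0.74), laza (1.75), verm (-2.43), EbpIII (1.32), regucalcin (0.48) and Sdr (0.92) were not called without the 4 head arrays that held proboscis transcripts.

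In 19 of 47 gene lists no member was called in limma. For 63 tested genes of oxidative phosphorylation 6 had an unadjusted p below 0.05 and none was called within pools. In this list 16 fell in head and 2 in palp, where 13.3% and 14.1% of all genes fell, with a median difference of changes of 0.13. Of 71 mitochondrial ribosomal protein genes 20 fell in head and 11 in palp (median 0.20), with 7 at an unadjusted p below 0.05 and none called within pools. Of 40 ribosome biogenesis genes 18 rose in palp and 9 in head (median 0.08), with 4 and none. Of all genes 16.2% rose in palp and 14.0% in head. Of 12 purine synthesis genes 11 rose in palp and 8 in head (median 0.12), with 2 and none. Proteasome genes, 28 tested, fell for 8 in head and 1 in palp (median 0.18), with 5 and none. For these lists a difference between parts was not shown, although the numbers called within each part differed.

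At 24 h, which shares the 0 h arrays with the later time, the leading genes differed in how near they were to their 48 h values, which was not tested. The difference of changes at 24 h was 6.57 for Pgant4, 1.89 for LpR1, 2.94 for CG5773, 3.33 for Obp99b, 1.60 for Jabba, -5.62 for Ama and -5.15 for CG17290. At 48 h it was 7.79, 2.11, 3.62, 4.61, 2.25, -5.997 and -5.85. For Fa2h it was 1.99 at 24 h and 3.77 at 48 h, for Ilp5 2.27 and 3.98, for Obp56b -1.97 and -4.06, and for CAH5 -4.82 and -3.33. It was 1.69 for LysS, -0.61 for Obp44a, -0.36 for alrm, -0.31 for nkt and -0.19 for CG12111, against 5.88, -2.65, -2.24, -1.98 and -4.19 at 48 h. These genes were picked to show the range. On 1 palp array at 24 h CG12111 was at 6.26, while the other 4 were between 2.09 and 2.33.

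The genes called here were also read on the antenna and body arrays of the series, which the comparison did not use. Of those that rose in palp with head not called, 17 of 34 tested rose in body, where 23.4% of all genes tested there rose, and 6 of 31 rose in antenna, where 5.94% rose. Of those that fell in palp with head not called, 22 of 50 fell in body (22.4% of all) and 14 of 53 fell in antenna (7.28% of all). Genes that fell in head with palp not called fell in body for 38 of 58 and in antenna for 11 of 59. Genes that rose in both palp and head rose in body for 30 of 37 and in antenna for 23 of 38, and those that fell in both fell for 43 of 48 and 28 of 52. Of 17 genes that rose in head with palp not called, none rose in antenna in limma, and in body 4 of 16 rose.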

How the data were processed

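Transcript levels were measured on 1-colour expression arrays, 1 per sample, from RNA that was amplified and labelled with biotin, per the labels. The deposited values are log2 signals that the authors made with GCRMA, per the submitters' processing notes, with no version named. They already shared 1 distribution over arrays, so total RNA per sample cannot be read from them. Control probe sets (183) were left out. Probe sets with several genes (402) or none (4720) were counted and not named, and each gene took the probe set with the highest mean across the 18 arrays. Of 13647 probe sets with 1 gene, 13544 matched a RefSeq gene. Testing required a log2 signal of 4 or more on at least 4 of the 18 arrays.

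The difference of changes came from a limma 3.58.1 fit (R 4.3.3) of 4 group means, with a two-sided moderated test and Benjamini-Hochberg adjustment over 10097 probe sets at 0.05. Changes within each part came from the same fit. Values at 24 h came from a fit that added those 10 arrays. The tests were tried on simulated data. The number of arrays limits the precision.

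Both parts at 1 time came from the same flies, per the design text. Residuals of the 9 such pairs correlated by 0.35 on average (8 of 9 above 0.1) and those of other pools by -0.10. The pool was used as a block in alternatives only. Genes named are the 9 most different in each direction, 5 in each direction with 1 part at the floor, 6 with opposite changes, up to 3 called per list and 30 fixed genes, and 15 were added after their values were seen. A fold "at least" compares the higher mean with 4. The members, lists and genes were chosen with earlier results of these data known. Figures were drawn with matplotlib 3.10.9.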

Additional observations from a re-analysis of the deposited data

Results flagged for a closer look

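Single arrays stood apart from the others of their group for 17 of the genes named. In groups of this size chance alone sets apart about 1 in 20, and no explanation was weighed. In head at 0 h, replicate 5 was low for Obp99b (11.3225), regucalcin (13.5885) and GstE3 (11.6893), and replicate 2 was low for Obp44a (15.0782). In head at 48 h, replicate 3 was high for CG43673 (6.0396) and Obp44a (14.9355), replicate 1 was high for CG32645 (4.8271), and replicate 2 was low for Mal-A5 (12.1731). In palp at 0 h, replicate 2 was high for Fa2h (9.2934), replicate 3 was high for Mal-B1 (11.0791) and Sdr (7.3095), and replicate 5 was high for CG7059 (8.2948). In palp at 48 h, replicate 1 was low for CG5773 (12.0739), Sodq (11.5561) and Tig (9.6488) and high for laza (9.3905) and CG7059 (12.8615), replicate 3 was low for LysS (5.1262), and replicate 2 was low for CG13215 (7.7558). The change over 48 h differed between palp and head at 397 probe sets by the limma test of the difference itself.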

How the results depend on the processing

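Settings are given here in which the 397 calls, the 236 higher, the 161 lower in palp or another count moved by over 1.5 times. The totals of 594, 590 and 283 below moved by less, and only another count in those settings moved so far. In the settings with 379, 327 and 414 calls no count moved by over 1.5 times. With the pool as a fixed block there were 597, with 253 lower and 4111 changes within head, and with palp minus head taken within pool and time there were 594, with 257 lower. A random block of pool and time gave 906, with 512 higher, 394 lower and 46 with palp at the floor, and pools 4, 6 and 8 alone gave 92, with 61 higher, 31 lower and 20 with head at the floor. Array weights gave 1168, with 673 higher, 495 lower, 64 with palp at the floor and 4558 within head. The 3′ minus 5′ signal as a covariate gave 362 higher of 590, and 1924 changes within head against 2615 in the main fit. This log2 signal, taken from control probe sets, had a median of 3.55 at 0 h and 5.23 at 48 h in head. In palp the medians were 2.84 and 3.71, and the ranges of the times overlapped in both parts. Without a filter 45 calls had palp at the floor, and with the filter met in each part 92 were lower and 0 had either part at the floor, by construction. Alternatives chosen after seeing the data were proboscis transcripts as a covariate (154 higher of 283) and the omission of the 4 head arrays that held them (121, with 61 higher, 60 lower, 18 with head at the floor, 830 within head and 4455 between fasted parts). That omission leaves 1 head array at 48 h, replicate 1 with its Yp1 signal, assumed to vary like the other groups. Others so chosen were gut transcripts as a covariate (379) and no 48 h replicate 1 of either part, the arrays with Yp1 signal (327). The last was no palp 0 h replicates 4 and 5 (414), where Ilp2 turned from -1.72 to 0.61 with all remaining palp arrays at the floor. Apart from these constructions the cause was not tested. Leaving out 1 array in turn gave 293 to 524 calls, the highest without head 0 h replicate 5, with 173 to 310 higher, 118 to 214 lower, 52 to 71 with head at the floor and 24 to 52 with palp at the floor. It gave 2091 to 3153 changes within palp, 1891 to 3537 within head, 6349 to 6687 between unfasted and 6333 to 6823 between fasted parts. The pool block changed the named calls given beside them. Of 97 called named genes 24 were called in all 39 settings and 75 without any 1 array.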
